A study of Mus musculus with 39 samples.

Results

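The genes of the cytosolic ribosomal proteins, the proteins of the ribosomes that read nuclear messages, were followed across kidney, liver, lung and skin. They were taken by symbol, as Rpl or Rps with a number and at most a short ending, together with Rplp0, Rplp1, Rplp2 and Rpsa. This pattern does not take Rpl36al, which was counted among the lists of other protein synthesis genes described below. Pseudogenes, mitochondrial ribosomal proteins and predicted genes were left out. This gave 89 genes among the 53366 gene symbols of the series. Of these, 85 were in the table of kidney, liver and lung, 88 in the table of skin, and 84 in both. The set holds the core subunits and also paralogues such as Rpl3l, Rps4l and Rps27l.

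The RNA came from C57BL/6 mice that all carried Prf1-/-, a knockout of perforin, the pore-forming protein with which cytotoxic lymphocytes kill their targets. Young mice were 3 months old and old mice 20 months old. From the age of 18 months the old mice had received either vehicle or ABT-737, which blocks the anti-apoptotic members of the BCL-2 family, on consecutive days of each month at 25 mg/kg. Each group of a tissue had 3 libraries, apart from 4 young ones for kidney, liver and lung, and no wild-type mice were analysed here. In the labels the treatment of ABT-737 replicates 4 and 5 reads ABT-738 and ABT-739, while their titles and the study's methods give ABT-737. Organs were perfused and taken whole. Libraries were made by a bulk form of MARS-seq, which reads the 3′ ends of polyadenylated RNA, and the deposited values were counts per gene. A kidney library held 1431814 to 3513311 counts, a liver library 223957 to 891116, a lung library 1046508 to 2600092 and a skin library 1493411 to 3842808.

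Prf1 itself had 1 to 11 counts per kidney library, 0 to 4 per liver library, 1 to 68 per lung library and 15 to 169 per skin library. All groups share the genotype, and whether the counted stretch lies outside the deleted part is not given in the sources used here, so these counts check no label. Each tissue expressed its own markers, with none at 0 in any library. Levels are given as CPM, counts per 1e6 of a library's total over the tested genes, with that total adjusted by TMM within a tissue. As sums over a list, kidney tubule genes stood at 10762 to 13028 CPM in kidney and hepatocyte genes at 47695 to 80579 CPM in liver. Lung epithelial genes stood at 27593 to 60267 CPM in lung and keratinocyte genes at 11337 to 35334 CPM in skin. The skin libraries also held skeletal muscle markers, at 7834 to 72727 CPM.

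As background, a ribosome has a small subunit with the Rps proteins, which decodes the message, and a large subunit with the Rpl proteins, which joins the amino acids. Nearly every protein is needed in equal number. The messages of nearly all of them begin with a C followed by a run of pyrimidines, the 5′ terminal oligopyrimidine (TOP) element, through which the mTOR pathway and Larp1 regulate their translation. The RNA levels measured here do not report that translation. The genes are among the most expressed of every tissue, and their many processed pseudogenes carry nearly the same sequence.

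The start regions of the 5 genes called higher in old vehicle than in young mice in more than 1 of kidney, liver and lung are shown first. They are shown because the TOP element is a feature of the family that the choice by symbol did not use. Each line holds the 60 bases before the start annotated in RefSeq (GRCm38.p6) and the 20 bases from it on, on the strand of the gene. For Rps18 the counted transcript starts 24 bases after the annotated start, past the end of the line. Capitals mark the unbroken run of C and T across the start. The windows lie at chr14:24490618-24490697, plus strand for Rps24, chr9:120571457-120571536, plus strand for Rpl14, chr9:120127706-120127785, plus strand for Rpsa, chr17:33955646-33955725, minus strand for Rps18 and chr11:68901506-68901585, plus strand for Rpl26.
Rps24: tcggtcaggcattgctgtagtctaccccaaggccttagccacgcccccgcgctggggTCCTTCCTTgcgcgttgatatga
Rpl14: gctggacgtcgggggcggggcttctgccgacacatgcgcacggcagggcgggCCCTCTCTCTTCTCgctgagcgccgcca
Rpsa: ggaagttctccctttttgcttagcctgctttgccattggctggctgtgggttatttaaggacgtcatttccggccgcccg
Rps18: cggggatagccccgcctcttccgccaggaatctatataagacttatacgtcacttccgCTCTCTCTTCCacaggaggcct
Rpl26: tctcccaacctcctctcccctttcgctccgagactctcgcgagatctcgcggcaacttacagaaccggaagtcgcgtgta

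Of the 85 genes, 64 were matched to a RefSeq promoter. The run of C and T at the start was 14 bases long in Rpl14, 11 in Rps18 and 9 in Rps24. The annotated start of Rpsa and of Rpl26 was neither C nor T. A run of at least 6 bases covered the start in 19 of the 64 (29.7%) and in 6.24% of the 17562 promoters of all genes. A start annotated a few bases away loses the run, so these shares depend on the annotation. The full windows of 250 bases before to 50 after the start were also searched on both strands. CTTTCC was found in 46.9% of the ribosomal protein genes against 26.3% of all promoters, and the ETS-type motif CTTCCGG in 40.6% against 12%. The YY1-type motif AAGATGGC was found in 7.81% against 3.29%, and TATAA in 28.1% against 22.3%. Among the windows printed above, that of Rpl26 held CTTCCGG on the opposite strand and that of Rps18 held TATAA. These matches describe letters, not bound sites.

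Rplp1, an acidic protein of the ribosomal stalk that recruits elongation factors, had the highest CPM of the family in each of the 4 tissues. Its mean over all libraries was 1498 CPM for kidney, 1242 CPM for liver, 3296 CPM for lung and 4178 CPM for skin. By CPM it was followed by Rpl8 and Rplp0 in kidney and by Rpl8 and Rpl4 in liver. Genes are compared with each other on the scale of CPM per kilobase of the deposited transcript. Reads came from 3′ ends, so their number need not grow with length, and a long transcript stands low on this scale. There Rplp1 (3235 CPM per kb), Rpl8 (1633) and Rpl32 (1421) led in kidney, and the same 3 genes led in lung. In liver Rplp1 and Rpl8 were the highest. In skin Rps15 stood at 2682 CPM per kb and Rplp1 at 1675. The deposited skin length was 567 bases for Rps15 and 2494 for Rplp1, whose region reaches 2000 bases past its annotated end. This order therefore depends on the deposited regions. The 5 genes of highest CPM made up 35.9%, 38.1%, 37.9% and 34.4% of the summed CPM of the family in kidney, liver, lung and skin.

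Levels within the family were far from equal, although the proteins are needed in equal number. In kidney the median gene stood at 36.8 CPM per kb against 3235 for the highest. Genes of core proteins such as Rpl39 (3.85 CPM per kb), Rps4x (9.75), Rps27 (19.9), Rps15a (2.46), Rpl31 (9.75) and Rpl5 (16) were below it. Many of the genes have 3′ ends whose sequence is in part that of other genes. Of the 50-base words in the last 300 bases of each transcript, a median of 53% occurred in annotated transcripts of other genes, and a read from such a stretch cannot be placed on 1 gene. The share was 21.1% for Rpl39, 62.1% for Rps4x and 100% for Rps27, but 0% for Rps15a, Rpl31 and Rpl5. Genes with high shares were not all low, such as Rpl10 (100% shared, 124 CPM per kb in kidney) and Rpl35 (96%, 137 CPM per kb). In lung, the 44 genes with over 50% shared had a median level of 34.2 CPM and the 28 genes with under 10% one of 115 CPM. Across genes, which are not independent replicates, the Spearman correlation of the shared percentage with mean CPM was -0.32 for kidney, -0.26 for liver and -0.30 for lung (85 genes each). It was -0.05 for skin (88 genes), where most counted regions run past the annotated 3′ end. How reads with several matches were counted is not given in the sources used here. The level of a single gene is therefore uncertain, and groups are compared within a gene.

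**Figure D1:**
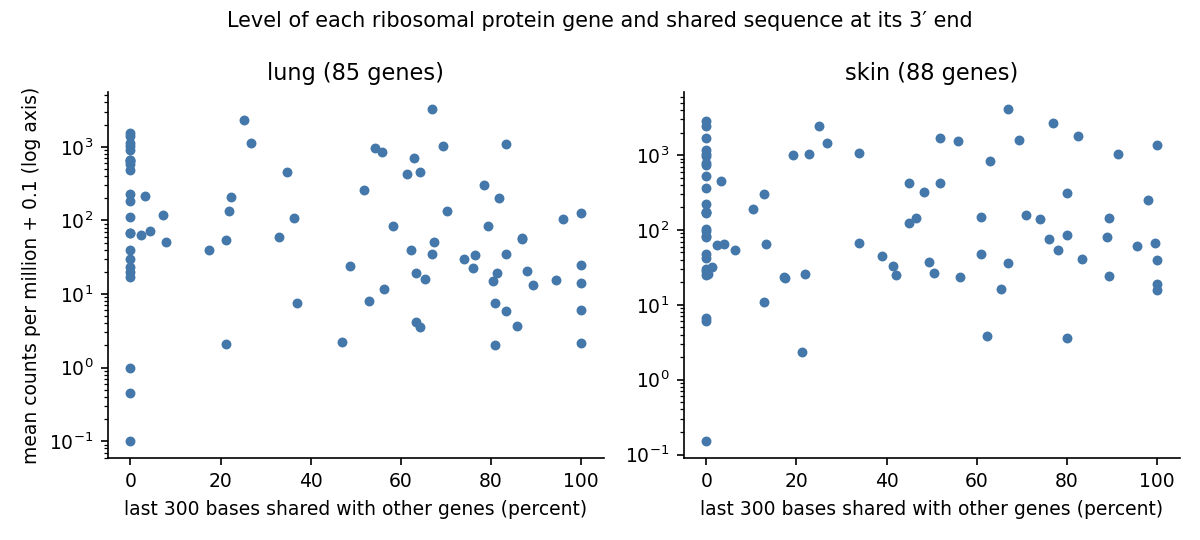
Mean level of each ribosomal protein gene over all lung libraries (left, 85 genes) and all skin libraries (right, 88 genes), in CPM plus 0.1 on a log axis, against the percentage of 50-base words in the last 300 bases of its transcript that also occur in transcripts of other genes. The median level in lung was 115 CPM under 10% shared and 34.2 CPM over 50% shared, and in skin 99.9 and 82.3 CPM.

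The share of all counts that fell on ribosomal protein genes was higher in old vehicle than in young kidney, liver and lung. In kidney, in replicate order, it was 1.54, 1.52, 1.51 and 1.61% in the young libraries, 1.75, 2.14 and 1.93% in the vehicle libraries and 1.53, 1.88 and 1.63% in the ABT-737 libraries. Vehicle lay above young without overlap, and ABT-737 overlapped both. In liver the young libraries had 1.17, 1.02, 0.987 and 1.02%, the vehicle libraries 1.69, 1.52 and 1.18% and the ABT-737 libraries 1.27, 1.28 and 1.18%. Both old groups of liver lay above young, but by less than the counting error at the edge. The lowest old library, vehicle replicate 5, had a 95% interval of 1.16 to 1.20%, and the highest young one, replicate 1, of 1.14 to 1.20%. In lung the values were 2.19, 1.87, 2.29 and 1.85% in young, 3.09, 2.36 and 4.92% in vehicle and 1.77, 2.72 and 2.46% in ABT-737 mice. Vehicle replicate 5 stood highest of all lung libraries, and the vehicle group lay above young. In skin they were 3.58, 4.24 and 4.05%, 4.71, 4.30 and 4.00% and 4.07, 4.73 and 4.17% in the same order of groups, and the groups overlapped. A 95% Wilson interval of these shares, which covers counting error only, reached at most 0.0535 percentage points to either side.

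As group means of the share, kidney had 1.54% ± 0.0453 (SD, n = 4) in young, 1.94% ± 0.194 (n = 3) in vehicle and 1.68% ± 0.185 (n = 3) in ABT-737 mice. Liver had 1.05% ± 0.0810, 1.46% ± 0.263 and 1.24% ± 0.0556 in the same order, and skin 3.95% ± 0.341, 4.34% ± 0.353 and 4.32% ± 0.358 (n = 3 each). Lung had 2.05% ± 0.222, 3.46% ± 1.32 and 2.32% ± 0.493. The vehicle mean of lung was 1.69 times the young mean and 1.33 times without vehicle replicate 5. Its ABT-737 mean was 0.671 times the vehicle mean, and 0.851 times without that library.

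**Figure D2:**
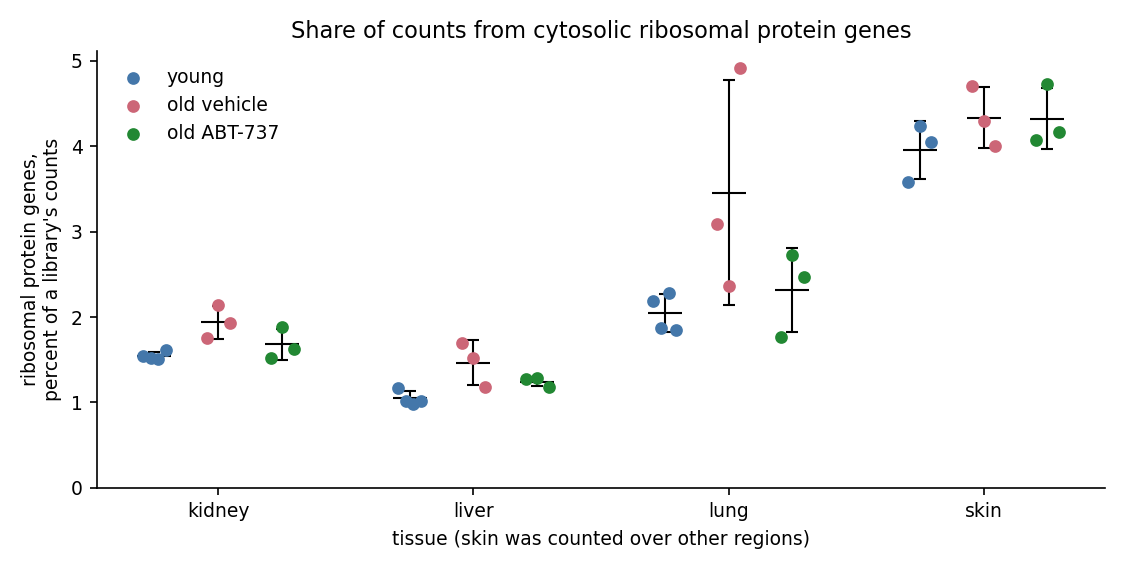
Percentage of each library's counts that fell on cytosolic ribosomal protein genes, by tissue, with 1 point per library, colours for young, old vehicle and old ABT-737 mice, and bars for the mean ± SD of a group. Vehicle lies above young in kidney (1.54% ± 0.0453 against 1.94% ± 0.194), liver and lung, and 1 lung vehicle library reaches 4.92%.

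Old vehicle and young mice, all without perforin, were compared gene by gene with edgeR. No treatment is given for the young mice, so age and vehicle injection cannot be told apart in this comparison. A gene is called at a Benjamini-Hochberg adjusted p-value under 0.05 over all tested genes of the tissue. In kidney 7 of 77 tested ribosomal protein genes were called, all higher in vehicle, where 13.3% of all tested genes were called and 7.75% were called higher. In liver 11 of 49 were called, all higher (background 22.6%, higher 11.7%). In lung 18 of 77 were called, all higher (background 12.9%, higher 8.15%). In skin 8 of 85 were called, all lower (background 11.2%, lower 5.35%). As shares of the tested family, the calls made up 9.09% for kidney, 22.4% for liver, 23.4% for lung and 9.41% for skin. The share called in either direction was thus above the background in lung, an excess that was lost without vehicle replicate 5 or young replicate 2 or 4 and with the replicate number as a block, and near or below it elsewhere, and the calls of a tissue ran one way. Vehicle lay wholly above young for 20 tested genes of kidney (background 14.8%), 21 of liver (16%) and 28 of lung (15.1%). In skin vehicle lay wholly below young for 25 genes (background 20.1%) and wholly above for 15 (19.5%).

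These counts moved with single libraries, as did the share of all tested genes called, which is given in brackets. In kidney 2, 3, 4, 2 and 4 genes were called without vehicle replicates 4 and 5 and young replicates 2, 3 and 4 (7.40%, 7.74%, 9.42%, 9.05% and 8.77%), and 12 (16.4%) without ABT-737 replicate 4, which is in neither of the compared groups. Of the 2 called without vehicle replicate 4 of kidney, 1 was lower in vehicle. In liver 7, 5 and 7 were called without young replicates 2, 3 and 4 (18.5%, 15.8% and 17.7%). In lung 2 of 77 were called without vehicle replicate 5, namely Rps15a and Rps19, which is 2.60% and below the share of all genes (4.08%). Without vehicle replicate 4, the vehicle library of lowest share, 34 were called (19.6%). Without young replicates 1, 2, 3 and 4 of lung the counts were 6, 5, 8 and 5, or 7.79%, 6.49%, 10.4% and 6.49% of the family against 6.77%, 7.45%, 6.77% and 7.41% of all genes. In skin no gene was called without young replicate 1 or 2 (0.260% and 0.274%), and 3, 5, 3 and 5 were called without young replicate 3, vehicle replicates 3 and 5 and ABT-737 replicate 5 (4.57%, 7.70%, 2.62% and 7.53%). With the replicate number as a block 1 gene of lung was called, Rps15a (1.30% of the family against 2.79% of all genes). Only young replicates 3 and 4, or 3 alone in skin, share a number with old libraries. The block leaves the comparison with young to these, and the numbers are not known to pair mice. A call lost with the block, here and below, therefore does not decide whether a change is absent.

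The fitted changes were mostly small. The median log2 fold change of vehicle against young over the tested ribosomal protein genes was 0.32 for kidney, 0.43 for liver, 0.81 for lung and -0.17 for skin. Over all tested genes it was 0.01, 0.02, 0.04 and 0.05, in the same order. The fitted change was above 0 for 62 of 77 ribosomal protein genes of kidney, 42 of 49 of liver, 74 of 77 of lung and 34 of 85 of skin. Among all tested genes it was above 0 for 50.5%, 51%, 52.2% and 53%. Large and small subunit genes had medians of 0.32 and 0.35 for kidney, 0.41 and 0.44 for liver, and 0.78 and 0.85 for lung. In skin they were -0.11 and -0.28. Counting only genes with under 10% shared 3′ sequence, the medians of the 4 tissues were 0.35, 0.37, 0.83 and -0.17. Without lung vehicle replicate 5 the median of lung was 0.47, and with the replicate number as a block it was 0.65. The filter on low counts kept 49 of 85 genes in liver, the shallowest tissue, so the liver values describe its more abundant ribosomal protein genes.

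**Figure D3:**
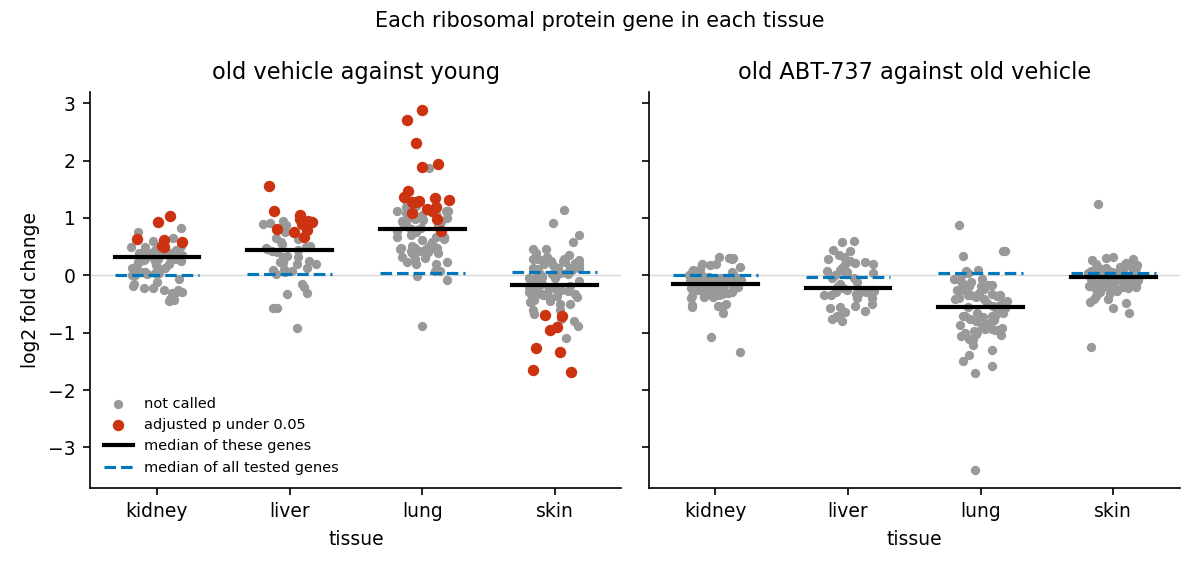
Log2 fold change of every tested ribosomal protein gene in each tissue, for old vehicle against young (left) and old ABT-737 against old vehicle (right), with genes at an adjusted p under 0.05 in red, a black line at the family's median and a dashed line at the median of all tested genes. On the left the family's median lies above that of all genes in kidney, liver and lung (0.81 in lung) and below it in skin (-0.17), and on the right no gene is called.

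Rps24 and Rpl14 were the genes called higher in kidney, liver and lung alike. Rps24, a small subunit protein mutated in some cases of Diamond-Blackfan anaemia, lies at chromosome 14, 24490681 to 24496146 (plus strand, mm10). In kidney it was at 134, 143, 93.7 and 121 CPM in young, 185, 211 and 180.3 CPM in vehicle and 142, 159 and 146 CPM in ABT-737 mice. Vehicle lay above both other groups without overlap (vehicle against young log2 fold change 0.64 ± 0.15 SE, adjusted p = 0.0103). In liver it was at 56.2, 53.6, 43 and 44.1 CPM in young, 284, 102 and 91.2 CPM in vehicle and 99.1, 75.9 and 86.6 CPM in ABT-737 mice. Each old liver library lay above each young one, and vehicle replicate 3, a library described below, was far above its group (log2 fold change 1.56 ± 0.34 SE, adjusted p = 0.00393). In lung it was at 173, 131, 125 and 91 CPM in young, 284, 228 and 569 CPM in vehicle and 119, 200.2 and 225 CPM in ABT-737 mice. Vehicle again lay above both other groups (log2 fold change 1.47 ± 0.35 SE, adjusted p = 0.0148). In skin young and vehicle overlapped and Rps24 was not called (log2 fold change -0.30 ± 0.30 SE, adjusted p = 0.514). The liver call held in each alternative and with each library left out, while the kidney call was lost without vehicle replicate 4 (log2 fold change 0.57). The lung call was lost without vehicle replicate 5 and with the replicate number as a block.

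Rpl14, a large subunit protein, lies at chromosome 9, 120571517 to 120574653 (plus strand, mm10). Its kidney levels were 476, 477, 463 and 454 CPM in young, 714, 739 and 648 CPM in vehicle and 519, 804 and 595 CPM in ABT-737 mice. The young values lay within a narrow range and each old value above them (log2 fold change 0.58 ± 0.15 SE, adjusted p = 0.0162). In liver it was at 389, 298, 336 and 284 CPM in young, 938, 569 and 451 CPM in vehicle and 499, 546 and 522 CPM in ABT-737 mice. Again each old library lay above each young one (log2 fold change 0.98 ± 0.25 SE, adjusted p = 0.0103). In lung it was at 383, 291, 378 and 208 CPM in young, 730.4, 434 and 1264 CPM in vehicle and 334, 362 and 508 CPM in ABT-737 mice. There vehicle lay above young and ABT-737 overlapped both (log2 fold change 1.36 ± 0.36 SE, adjusted p = 0.0239). The kidney call was lost without vehicle replicate 4 (log2 fold change 0.54). The lung call was lost without vehicle replicate 5. With the replicate number as a block the lung call was lost, as were those of kidney (0.66) and liver (1.14).

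Rpsa and Rps18 rose in a pair of tissues each. Rpsa, the small subunit protein also known as the laminin receptor, lies at chromosome 9, 120127766 to 120132369 (plus strand, mm10) and was at 563, 589, 395 and 627 CPM in young, 1327, 912 and 926 CPM in vehicle and 753, 719 and 673 CPM in ABT-737 mice in liver. ABT-737 lay between the other groups without overlap (log2 fold change 0.95 ± 0.23 SE, adjusted p = 0.00814 for vehicle against young). In kidney it rose as well (log2 fold change 0.50 ± 0.14 SE, adjusted p = 0.0318), in lung its change was 1.07 (adjusted p = 0.0783) and in skin 0.45 (adjusted p = 0.162). Rps18, a small subunit protein often used as a reference gene, lies at chromosome 17, 33951999 to 33955641 (minus strand, mm10) and was at 81.3, 77.5, 78.3 and 78.7 CPM in young, 275, 110.0 and 158 CPM in vehicle and 151, 137 and 106 CPM in ABT-737 mice in liver. Both old groups lay above young (log2 fold change 1.13 ± 0.27 SE, adjusted p = 0.00779). It rose in lung too (log2 fold change 1.15 ± 0.34 SE, adjusted p = 0.0386), where it was at 168, 187, 216 and 269.8 CPM in young, 274, 466 and 657 CPM in vehicle and 195, 400.4 and 231 CPM in ABT-737 mice. Of the printed windows, that of Rpl26, a large subunit protein, belongs to a gene called in liver (log2 fold change 0.80, adjusted p = 0.0287) and lung (1.35, adjusted p = 0.0386). The lung calls of Rps18 and Rpl26 were lost without lung vehicle replicate 5 and with the replicate number as a block.

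**Figure D4:**
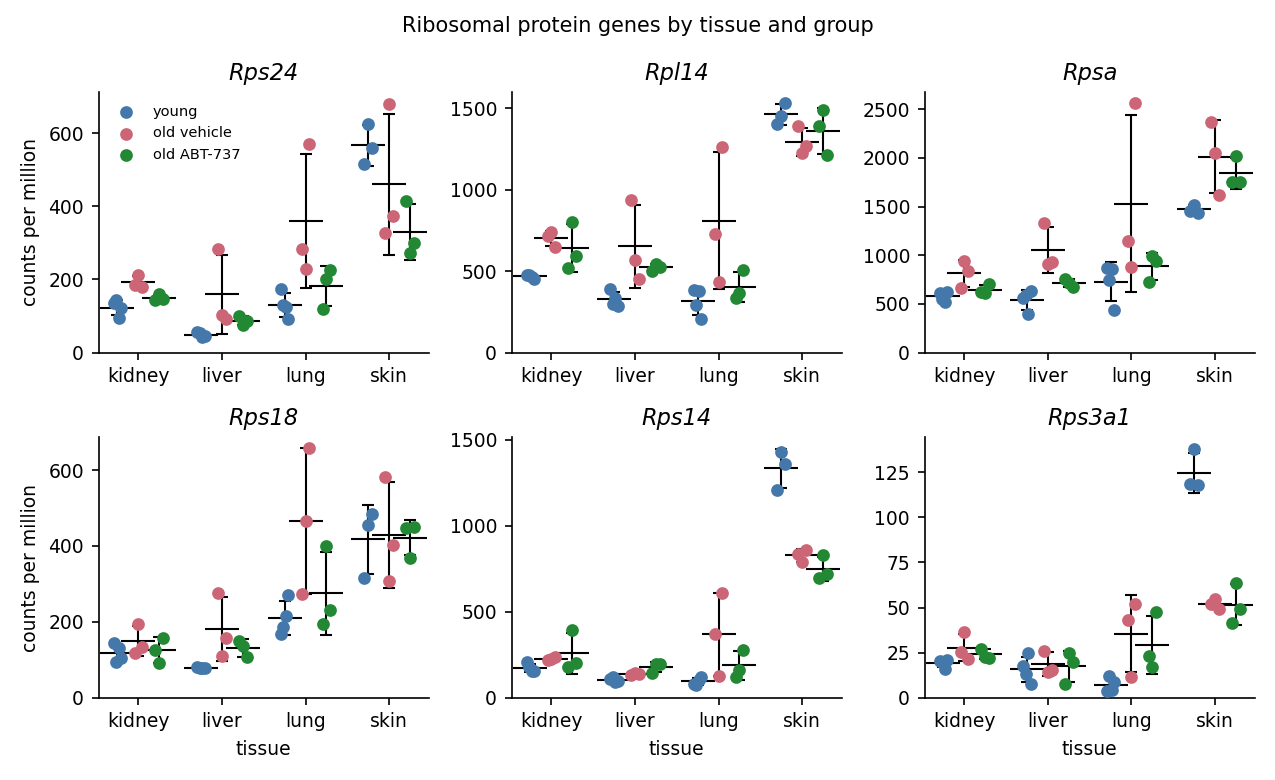
Level in CPM of 6 ribosomal protein genes, by tissue, with 1 point per library, colours for young, old vehicle and old ABT-737 mice, and bars for the mean ± SD; levels in skin were counted over other regions and do not compare with the rest. Rps24 and Rpl14 lie higher in vehicle than in young kidney, liver and lung, while Rps14 and Rps3a1 lie higher in young skin than in both old groups (Rps14 1334 ± 112 CPM in young and 829 ± 38 CPM in vehicle skin).

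The largest called changes of kidney were those of Rps20 and Rpl38. Rps20, a small subunit protein, was at 264, 307, 211 and 241 CPM in young, 711, 395 and 459 CPM in vehicle and 376, 681 and 261 CPM in ABT-737 mice. Vehicle lay above young (log2 fold change 1.03 ± 0.26 SE, adjusted p = 0.0162), vehicle replicate 3 and ABT-737 replicate 4 were the highest libraries, and the call was lost without vehicle replicate 3 (log2 fold change 0.73) or young replicate 3 (0.93). Rpl38, a large subunit protein needed for the translation of Hox messages in the mouse embryo, was low, at 4.29, 6.34, 4.10 and 6.00 CPM in young, 7.46, 12.3 and 10.8 CPM in vehicle and 8.22, 6.93 and 7.79 CPM in ABT-737 mice. It rested on 10 to 23 counts per young library (log2 fold change 0.93 ± 0.28 SE, adjusted p = 0.0406), and the call was lost without any of young replicates 1, 3 and 4, vehicle replicates 4 and 5 and ABT-737 replicate 5 (log2 fold change 0.80 to 1.0). It was also lost by DESeq2 (0.94) and without a filter on low counts (0.91). Rpl13, another large subunit protein, was at 523, 582, 580.5 and 601 CPM in young, 927, 884 and 817 CPM in vehicle and 614, 1311 and 816 CPM in ABT-737 mice. Both old groups lay above young (log2 fold change 0.62 ± 0.19 SE, adjusted p = 0.0462), and the call was lost with any 1 young or vehicle library or ABT-737 replicate 5 left out (log2 fold change 0.56 to 0.66) or with at least 10 counts asked of every library (0.61). In liver Rpl37a, a large subunit protein, was at 32.9, 23.8, 23 and 38.4 CPM in young, 105, 57.4 and 39.8 CPM in vehicle and 35.7, 64.5 and 39.6 CPM in ABT-737 mice. Vehicle lay above young (log2 fold change 1.05 ± 0.34 SE, adjusted p = 0.0355), and the call was lost without vehicle replicate 3 (log2 fold change 0.74) or 4 (1.09) or young replicate 1, 2 or 3 (1.09, 0.96 and 0.95).

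In lung the largest fold changes were uneven between mice. Rps19, the small subunit protein most often mutated in Diamond-Blackfan anaemia, was at 43.2, 41, 38.5 and 35.9 CPM in young, 788, 48.5 and 46 CPM in vehicle and 34.1, 32.7 and 17.9 CPM in ABT-737 mice. The high mean rests on vehicle replicate 3, with 1175 counts against 113 and 123 in the other vehicle libraries. The log2 fold change of 2.88 (adjusted p = 0.0228) became 0.25 without that library, and with any 1 young library left out it was not called (2.85 to 2.94). DESeq2 did not call it either (2.88). Rps15a, a small subunit protein, was at 11.3, 18.1, 9.77 and 10.4 CPM in young, 55, 36 and 149 CPM in vehicle and 28.3, 31.6 and 51 CPM in ABT-737 mice. Each old library lay above each young one (log2 fold change 2.71 ± 0.44 SE, adjusted p = 0.00312), and the call held in each alternative and with each library left out. Rps3a1, also of the small subunit, was at 3.92, 11.8, 4.34 and 8.84 CPM in young, 42.9, 11.6 and 52 CPM in vehicle and 23.2, 16.9 and 47.4 CPM in ABT-737 mice. Vehicle replicate 4 lay inside the young range (log2 fold change 2.31 ± 0.53 SE, adjusted p = 0.0128). Rps14, the small subunit protein whose loss is tied to the anaemia of a myelodysplastic syndrome, was at 80.9, 75.1, 105 and 123 CPM in young, 372, 127 and 609 CPM in vehicle and 123, 162 and 281 CPM in ABT-737 mice. Its lowest vehicle library was close to its highest young one (log2 fold change 1.94 ± 0.43 SE, adjusted p = 0.0112). Rps4x, the X-linked small subunit protein, was at 6.38, 16, 9.77 and 32.7 CPM in young, 51.6, 39.5 and 89.8 CPM in vehicle and 25.8, 81.1 and 42.5 CPM in ABT-737 mice. Vehicle lay above young (log2 fold change 1.90 ± 0.50 SE, adjusted p = 0.0238). Without vehicle replicate 5 the log2 fold changes of Rps3a1, Rps14 and Rps4x were 1.90, 1.38 and 1.48, and none was called. Rps4x was not called without young replicate 1, 2 or 3 either (1.62, 1.89 and 1.71). Rps15a, Rps3a1 and Rps4x share 0%, 76.1% and 62.1% of their 3′ end words with other genes.

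The highest liver library for Rps24, Rpl14, Rpsa, Rps18 and Rpl37a was vehicle replicate 3, which stood apart in other measures. It was the shallowest library of the series, at 223957 counts. The 7 hepatocyte markers summed to 79788, 64368, 70582 and 69846 CPM in young, 47695, 58487 and 65067 CPM in vehicle and 80579, 79329.9 and 70447 CPM in ABT-737 liver, lowest in this library. Alb, the most abundant of them, was at 8907 CPM there and at 30297 to 41155 CPM in the other liver libraries. The 4 leukocyte markers summed to 40.7, 58.1, 55.3 and 71 CPM in young, 855, 591 and 380.2 CPM in vehicle and 107, 64.5 and 124 CPM in ABT-737 liver, highest in the same library. Without it, 9 ribosomal protein genes were called between vehicle and young liver and the family's median was 0.44, beside 11 and 0.43 with it. The part of these differences in the values of single genes was not tested.

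Markers of immune cells moved with these changes. T cell markers, summed over 9 genes of which Thy1 was the most abundant, stood in lung at 193, 148, 162 and 173 CPM in young, 667, 797 and 2744 CPM in vehicle and 209, 446 and 537 CPM in ABT-737 mice. All 9 were called higher in vehicle than in young lung. Vehicle replicate 5 was the highest lung library for both the T cell markers and the ribosomal protein share. The libraries of other tissues did not all run in parallel. In liver the vehicle library of highest share, replicate 3, had the lowest T cell sum of its group, and the one of lowest share, replicate 5, the highest. In kidney ABT-737 replicate 4 had the lowest T cell sum of all kidney libraries and a share of 1.88%, above that of vehicle replicate 3 (1.75%). In kidney the T cell markers stood at 19.3, 16.8, 18.7 and 19.4 CPM in young, 91.1, 140.2 and 137 CPM in vehicle and 38, 13.9 and 41.5 CPM in ABT-737 mice, and 6 of 6 tested were called higher in vehicle than young. In liver they stood at 7.74, 2.98, 16.9 and 5.75 CPM, 96, 125 and 157 CPM and 7.93, 9.48 and 22.3 CPM. Up to 7 of the 9 were at 0 in a young liver library, and 1 of 1 tested was called higher. In skin, over 10 genes, they stood at 84.7, 113 and 112 CPM, 291, 215 and 531 CPM and 193, 171 and 238 CPM, and 6 of 6 tested were called higher. In skin 0 of 7 were called without young replicate 1 or 2, and 1 without young replicate 3 or vehicle replicate 5. In lung 8 of 9 were called with the block and all 9 with each library left out.

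The 4 general leukocyte markers, led by Cd52 in kidney and by Laptm5 in the other tissues, had medians of 77.7, 358 and 163 CPM in young, vehicle and ABT-737 kidney. In the same order the medians were 56.7, 591 and 107 CPM in liver, 686, 1895 and 1269 CPM in lung, and 66.8, 418 and 175 CPM in skin. Macrophage markers (7 genes, led by C1qb in kidney and lung, by C1qa in liver and by Lyz2 in skin) had medians of 238 and 933 CPM in young and vehicle kidney and 371 and 1727 CPM in liver. They had 1231 and 3771 CPM in lung and 344 and 2925 CPM in skin. Their medians in ABT-737 mice were 327, 321, 3156 and 1023 CPM for kidney, liver, lung and skin. The 6 erythroid genes, led by Hbb-b1, summed to 7711, 1844, 1517 and 1376 CPM in young and 15487, 15655 and 15743 CPM in vehicle kidney, where young replicate 1 stood above the other young libraries and 6 of 6 were called higher. In liver they summed to 1522, 651, 491 and 927 CPM and 4286, 3603 and 4109.9 CPM, with 5 of 6 called higher, and in skin, over 5 genes led by Hbb-bs, to 546, 598 and 507 CPM and 4804, 14706 and 1266 CPM, with 5 of 5 called higher. In lung 3 of 6 were called higher, and the sums are given below. With 1 library left out in turn the kidney and liver counts of higher calls were the same, while 0 were called in skin without any 1 young library, 3 without skin vehicle replicate 4, and 0 in lung without young replicate 1, 2 or 4 or vehicle replicate 3 and 6 without lung ABT-737 replicate 3. Proliferation markers, led by Pcna, stood in lung at 65.7, 105, 73.3 and 80.1 CPM in young, 256, 226 and 281 CPM in vehicle and 117, 136 and 314 CPM in ABT-737 mice, and 6 of 7 were called higher in vehicle than young, or 2 with the block. In skin the T cell markers were thus called higher in vehicle mice while the called ribosomal protein genes were lower. The part of these cell types in the ribosomal protein changes was not tested, and in whole tissue more cells of a type and more RNA per cell cannot be told apart.

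In skin the called genes were lower in old vehicle than in young mice. Rpl36, a large subunit protein, was at 35.5, 54.7 and 39.6 CPM in young, 10.1, 13.9 and 16 CPM in vehicle and 11.7, 20.0 and 18.9 CPM in ABT-737 mice. Both old groups lay below all young libraries and overlapped each other (log2 fold change -1.69 ± 0.29 SE, adjusted p = 0.0145). Rps3a1 was at 119, 138 and 118 CPM in young, 51.9, 54.5 and 49.4 CPM in vehicle and 41.5, 63.8 and 49.4 CPM in ABT-737 mice, and Rpl35a, a large subunit protein, at 44.9, 48.9 and 40.9 CPM in young, 20.2, 27 and 22.3 CPM in vehicle and 21, 24.3 and 22.2 CPM in ABT-737 mice. Each had both old groups below young (log2 fold change -1.26 ± 0.19 SE, adjusted p = 0.012 for Rps3a1; log2 fold change -0.95 ± 0.19 SE, adjusted p = 0.0189 for Rpl35a). All of these calls were lost without young replicate 1 or 2, with log2 fold changes of -1.81 and -1.49 for Rpl36, -1.30 and -1.19 for Rps3a1, and -0.95 and -0.89 for Rpl35a. That of Rpl35a was also lost without vehicle replicate 5 (-0.92).

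In old ABT-737 skin 7 genes of the family were called against young, all lower (background 5.17%, lower 3.17%), and both comparisons share the young libraries. Their log2 fold changes included -1.37 for Rpl36 (adjusted p = 0.0331) and -1.27 for Rps3a1 (adjusted p = 0.0158). Rpl35a had -1.0 (adjusted p = 0.0277) and Rps29, a small subunit protein, -0.98 (adjusted p = 0.0429). Rps29 was at 68.7, 64.4 and 77.8 CPM in young, 31.2, 51.3 and 30.1 CPM in vehicle and 33.7, 35.3 and 37.8 CPM in ABT-737 mice, with both old groups below young. No gene was called with young replicate 1, 2 or 3 or ABT-737 replicate 5 left out, where at most 0.499% of all genes were, and 1 was without ABT-737 replicate 4 (0.415% of all genes). The call of Rps29 was also lost without vehicle replicate 3 (log2 fold change -1.0). DESeq2 called 13 genes, all lower, which is 15.3% of the family against 14.9% of all genes (8.16% lower).

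The lower values of old skin lay mostly among the less abundant genes, a split made after the values were seen. Of the 42 tested genes at a mean of 100 CPM or less, 30 had a fitted change below 0 between vehicle and young (median log2 fold change -0.28, 6 called). Of the 43 genes over 100 CPM, 21 did (median 0.01, 2 called). Over and under 100 CPM the medians were 0.36 and 0.22 for kidney, 0.48 and 0.28 for liver, and 0.77 and 0.88 for lung. Counts on large subunit genes were 1.38 ± 0.00791 (SD, n = 3) times those on small subunit genes in young skin, 1.55 ± 0.0381 times in vehicle and 1.60 ± 0.0421 times in ABT-737 skin. Both old groups lay above young without overlap. In lung this ratio was 1.94 ± 0.201, 1.84 ± 0.0961 and 2.09 ± 0.0660, and the groups overlapped. In liver it was 1.95 ± 0.0168, 1.81 ± 0.0721 and 1.91 ± 0.0885, with vehicle below young without overlap, opposite to skin, and ABT-737 overlapping both. In kidney it was 2.03 ± 0.0613, 1.99 ± 0.0850 and 2.08 ± 0.128, with overlap. These ratios were not tested. No level of skin was compared with another tissue, because the deposited skin regions reach 2000 bases past the annotated 3′ end for 59 of the 88 genes.

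**Figure D5:**
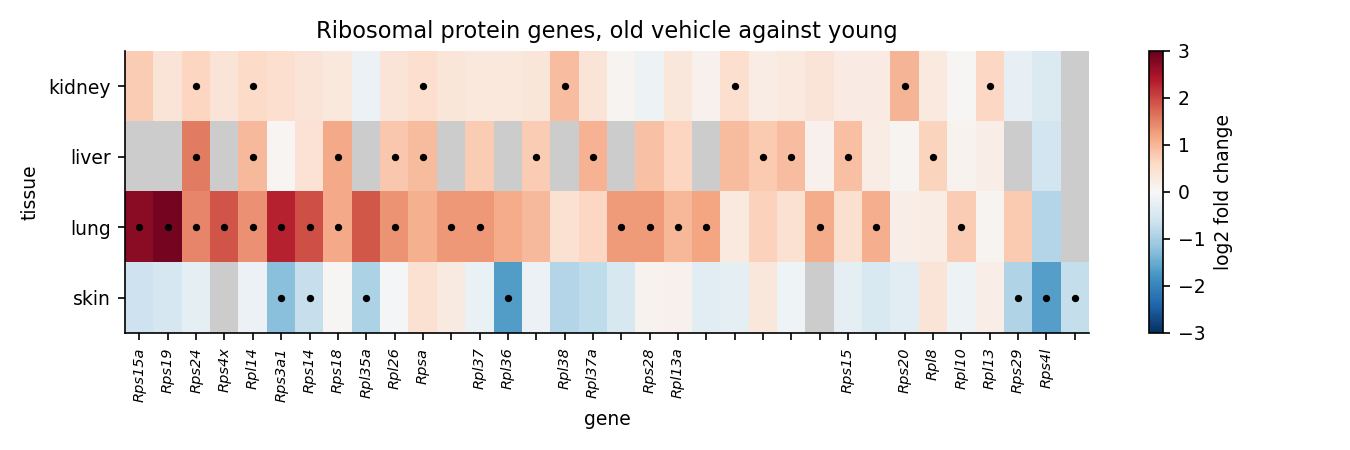
Log2 fold change of old vehicle against young mice in each tissue for ribosomal protein genes called in kidney, liver, lung or skin, from blue (lower in vehicle) to red (higher), with a dot where the adjusted p was under 0.05, grey where a gene was not tested, and symbols for genes described in the text. The dots of kidney, liver and lung fall on red cells, such as Rps24 (0.64, 1.56 and 1.47), and the dots of skin on blue cells, such as Rpl36 (-1.69).

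Whether ABT-737 moved these genes in old mice was the next comparison. By edgeR no ribosomal protein gene was called between ABT-737 and vehicle in kidney (background 1.35%), liver (3.85%), lung (0%) or skin (0%). DESeq2 called 2 in lung, both lower (2.70% against 3.05% of all genes), and 0 in the other tissues. Without vehicle replicate 3, edgeR called 1 in kidney and 1 in liver (background 4.15% and 8.78%). At an unadjusted p under 0.05, in kidney the numbers lower and higher were 5 and 0 (background 7.88% and 6.93%), and in liver the numbers lower and higher were 5 and 1 (background 9.35% and 6.75%). In lung the numbers lower and higher were 18 and 0 (background 6.54% and 9.52%), and in skin the numbers lower and higher were 1 and 1 (background 4.57% and 3.4%). The family's median log2 fold change was -0.16 for kidney, -0.22 for liver, -0.56 for lung and -0.03 for skin, beside 0.01, -0.03, 0.04 and 0.04 for all tested genes. In lung 70 of 77 fitted changes were below 0. ABT-737 lay wholly below vehicle there for 15 genes (background 6.63%), among them Rps24, Rpl13a and Rpl10, and wholly above it for 0 (5.18%). Without lung vehicle replicate 5 the median of lung was -0.19, and the block gave -0.49 with 0 calls. The other medians were small and moved with single libraries too. That of liver became -0.03 and -0.06 when vehicle replicate 3 or 4 was left out, and -0.12 and -0.13 when ABT-737 replicate 3 or 5 was. That of kidney became -0.09 with vehicle replicate 4 left out and -0.10 with ABT-737 replicate 5 left out. This comparison shares its vehicle libraries with that of vehicle against young, so the values of both depend on the same 3 mice. T cell, macrophage and leukocyte markers fell in it too. In kidney 4 of 6 T cell, 4 of 7 macrophage and 4 of 4 leukocyte markers were called lower (background lower 1.21%). In liver 1 of 1, 6 of 6 and 3 of 3 were (2.85%). In lung and skin 0 were called, and every tested one of these lists had a fitted change below 0. Other immune lists did not all fall. In lung 3 of 5 tested B cell markers and 2 of 4 tested plasma cell markers had a fitted change above 0, with 0 called. Their part in the family's values was not tested.

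The ABT-737 lungs also differed among themselves in markers of other cells. The 6 erythroid genes, led by Hbb-b1, summed to 2488, 1672, 3299.9 and 1981 CPM in young, 22556, 9214 and 3178 CPM in vehicle and 62829.6, 6180.4 and 11499 CPM in ABT-737 lung. ABT-737 replicate 3 was the highest, and it also had the lowest ribosomal protein share of all lung libraries, with 15% of its counts on its 10 most abundant genes against 8.38 to 11.9% in the others. ABT-737 replicate 4 stood out for the 5 adipocyte markers, led by Cfd, at 149.6, 97.3, 117 and 103 CPM in young, 214, 129 and 70.7 CPM in vehicle and 163, 4977 and 103 CPM in ABT-737 lung. The 7 hepatocyte markers, led by Cyp2e1, summed to 39.3, 817 and 14.8 CPM in the ABT-737 lungs, with replicate 4 highest again. Without ABT-737 replicate 3 and 4 in turn, the family's median of ABT-737 against vehicle in lung was -0.41 and -0.73, and 0 genes were called in either case. The part of these cells in the lung values was not tested.

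Single genes show the sizes behind these medians. Rpl10, a large subunit protein, stood in lung at 111, 111, 114 and 89.4 CPM in young, 168, 191 and 182 CPM in vehicle and 86.3, 104 and 106 CPM in ABT-737 mice. Vehicle lay above both other groups, with a called change against young (log2 fold change 0.77 ± 0.22 SE, adjusted p = 0.0321). ABT-737 against vehicle was not called (log2 fold change -0.87 ± 0.24 SE, adjusted p = 0.129). Rpl13a, a large subunit protein often used as a reference gene, was at 529, 475, 415 and 305 CPM in young, 689, 696 and 1179 CPM in vehicle and 458, 532 and 628 CPM in ABT-737 mice. It too had vehicle above both other groups (log2 fold change 0.99 ± 0.30 SE, adjusted p = 0.0437 against young), and ABT-737 against vehicle was not called (log2 fold change -0.66 ± 0.32 SE, adjusted p = 0.33). The calls of Rpl10 and Rpl13a against young were lost without lung vehicle replicate 5 and with the replicate number as a block. Rps24 in kidney was lower in each ABT-737 library than in each vehicle library but not called (log2 fold change -0.36 ± 0.16 SE, adjusted p = 0.313).

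Old ABT-737 mice were also set beside young mice. By edgeR 0 genes of the family were called in kidney and lung (background 2.12% and 2.55%), where DESeq2 called 1 and 4 (3.18% and 6.57% of all genes). In kidney 1 was called without ABT-737 replicate 3 or 5, or 1.27% of the family against 1.16% and 1.89% of all genes. In lung 2 were called without ABT-737 replicate 4 or vehicle replicate 4 or 5. That is 2.60% of the family against 11.2%, 4.55% and 5.87% of all genes. At an unadjusted p under 0.05, in kidney the numbers lower and higher were 3 and 10 (background 7.01% and 9.73%), and in lung the numbers lower and higher were 0 and 10 (background 6.11% and 14.4%). In liver 3 were called, all higher (background 8.4%, higher 3.13%). Rpl37, a large subunit protein, was at 87.1, 71.5, 76.8 and 71 CPM in young, 214, 90.1 and 109 CPM in vehicle and 198, 199 and 129 CPM in ABT-737 mice (log2 fold change 1.19 ± 0.28 SE, adjusted p = 0.0163 for ABT-737 against young). Rps15, a small subunit protein, was at 258, 247, 259.6 and 278 CPM in young, 628, 449.5 and 393 CPM in vehicle and 432, 506 and 562 CPM in ABT-737 mice (log2 fold change 0.94 ± 0.22 SE, adjusted p = 0.0136). Rps14 was at 108, 121, 90.6 and 97.8 CPM in young, 135, 146 and 140.0 CPM in vehicle and 143, 195 and 198 CPM in ABT-737 mice (log2 fold change 0.79 ± 0.21 SE, adjusted p = 0.0275). In each of the 3, both old groups lay above the young libraries. With ABT-737 replicate 4 left out none was called (3.45% of all genes). Without ABT-737 replicate 5 or young replicate 2 or 4, 1 was (3.20%, 4.97% and 4.85% of all genes). Without vehicle replicate 3, 8 were called, 1 of them lower, where 16% of all genes were called. The call of Rps14 was also lost without a filter on low counts (log2 fold change 0.78) and with at least 10 counts asked of every library (0.63). It was lost without young replicate 1 (0.79) or 3 (0.71) too. That of Rpl37 was also lost without ABT-737 replicate 3 (1.12). The family's median log2 fold change was 0.12 for kidney, 0.26 for liver, 0.25 for lung and -0.20 for skin. With ABT-737 replicate 3 or 4 left out it was 0.38 or 0.06 for lung and 0.19 or 0.04 for kidney. With ABT-737 replicate 5 left out it was 0.39 for liver and -0.13 for skin. The block gave 0.10 for lung and 0.39 for liver, and at least 10 counts in every library gave 0.17 for liver.

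The stalk proteins and Rps6 were not called in any comparison of groups within a tissue where they were tested. Rplp0, the scaffold of the stalk, was at 1032 ± 119 CPM (SD, n = 4) in young and 1354 ± 119.7 CPM (n = 3) in vehicle kidney (adjusted p = 0.134). In lung it was at 1167 ± 328 and 2033 ± 1103 CPM (adjusted p = 0.159). Rplp1 was at 1037 ± 224 CPM in young and 1453 ± 250.3 CPM in vehicle liver (adjusted p = 0.153). Rplp2, its partner, was at 13.4 ± 1.37 and 28.8 ± 12.9 CPM there (log2 fold change 0.90, adjusted p = 0.0818). Rps6, the target of S6 kinase, had log2 fold changes of -0.41 for kidney, 0.81 for lung and 0.47 for skin between vehicle and young (adjusted p = 0.24, 0.065 and 0.177). Rpl32, another common reference gene, was at 684 ± 45.1, 716 ± 38.7 and 731 ± 198 CPM in young, vehicle and ABT-737 kidney, and its change of 0.07 between vehicle and young was not called. The abundant genes Rpl8 and Rpl4 had changes of 0.28 and 0.37 in kidney (adjusted p = 0.21 and 0.0843). Rpl8 was called higher in liver (log2 fold change 0.68, adjusted p = 0.0298), and Rpl4 was not (log2 fold change 0.24, adjusted p = 0.412).

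The paralogues did not share one pattern. Rps4l, a paralogue of Rps4x, was called lower in old vehicle skin, where it was at 26.8, 29.3 and 40.9 CPM in young, 11.4, 7.83 and 11.9 CPM in vehicle and 14.3, 20.8 and 39 CPM in ABT-737 mice. Vehicle lay below both other groups (log2 fold change -1.64 ± 0.39 SE, adjusted p = 0.03 against young), ABT-737 against vehicle was not called (log2 fold change 1.24 ± 0.38 SE, adjusted p = 0.476), and the call against young was lost with any 1 young or vehicle library left out (log2 fold change -1.76 to -1.45). Its changes between vehicle and young were -0.43 for kidney, -0.57 for liver and -0.89 for lung, none called (adjusted p = 0.275, 0.274 and 0.126), while Rps4x was called higher in lung. Rps27l, a paralogue of Rps27 and a known target of the tumour suppressor p53, stood at 539.7 CPM per kb in kidney and Rps27 at 19.9. Other genes share 100% of the 3′ end words of Rps27 and 21.9% of those of Rps27l. In liver Rps27l was at 409, 239.9, 279.5 and 249 CPM in young, 227, 242 and 232 CPM in vehicle and 333, 347 and 381 CPM in ABT-737 mice. Each ABT-737 library lay above each vehicle library, but the change was not called (log2 fold change 0.60, adjusted p = 0.213). Its ABT-737 against vehicle change was 0.30 for kidney, -0.07 for lung and 0.30 for skin, none called.

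Rpl3l, a paralogue of Rpl3 specific to striated muscle, was at 0 counts in the young and ABT-737 liver libraries. Its mean level was 0.894 CPM in lung and 5.35 CPM in kidney. In skin it was at 313, 262 and 265 CPM in young, 173, 173 and 47.2 CPM in vehicle and 229, 46.6 and 71.3 CPM in ABT-737 mice. Young lay above vehicle without a call (log2 fold change -1.10 ± 0.61 SE, adjusted p = 0.246). The 7 skeletal muscle markers, led by Acta1, stood at 72727, 52089 and 51056 CPM in young, 27916, 35708 and 7834 CPM in vehicle and 40689, 13985 and 12852 CPM in ABT-737 skin, with 1 called lower in vehicle than young, and their part was not tested. Rpl3 was at 19.4 ± 1.31 CPM (SD, n = 4) in young and 30.9 ± 3.25 CPM (n = 3) in vehicle kidney (adjusted p = 0.0894). Rpl7l1, a paralogue of Rpl7, was at 86.1 CPM in kidney, with changes between vehicle and young of -0.07 for kidney, -0.15 for liver and -0.08 for lung. Rpl7 had 0.12 for kidney and 0.94 for lung, and none of these was called. The testis paralogue Rpl10l was at 0 in kidney, liver and lung, where a count of 0 allows up to 3 counts in a library. Rpl39l was at most 0.358 CPM on average in those tissues.

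The family also differed between young tissues. In young mice 14 of 75 tested ribosomal protein genes were called between liver and kidney (background 51.5%), 45 between lung and kidney (74.7%) and 36 between lung and liver (69.4%). Rps27l had lower levels in lung than in kidney (log2 fold change -1.63 ± 0.17 SE, adjusted p = 1.33e-09) and liver (log2 fold change -2.08 ± 0.18 SE, adjusted p = 3.31e-11). Rps3a1 was lower in lung than in kidney (log2 fold change -1.60 ± 0.28 SE, adjusted p = 7.63e-06). Rpl38 was higher there (log2 fold change 1.26 ± 0.29 SE, adjusted p = 3.32e-04), as was Rps19 (log2 fold change 1.23 ± 0.18 SE, adjusted p = 4.16e-07). Rps15a was lower in liver than in kidney (log2 fold change -2.39 ± 0.77 SE, adjusted p = 0.0107). Rps4x had 0 counts in all 4 young liver libraries and was at 5.58, 8.54, 7.61 and 18 CPM in the young kidneys.

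The change between vehicle and young was tested between tissues in 1 fit over kidney, liver and lung. It was smaller in kidney than in lung for 7 of 78 tested genes (background 8.04%, smaller 3.32%) and smaller in liver than in lung for 5 (background 11.4%, smaller 5.3%). Rps14 was called in both pairs, with a difference of -1.58 ± 0.47 SE on the log2 scale for kidney minus lung (adjusted p = 0.0319). So were Rps3a1 (-1.82 ± 0.56, adjusted p = 0.0405) and Rpl15 (-1.36 ± 0.43, adjusted p = 0.0455), a large subunit protein. Between kidney and liver 0 were called by edgeR and by DESeq2 (background 0.786%), with 3 at an unadjusted p under 0.05 (background 11.4%). The counts against lung were 1 and 0 without lung vehicle replicate 5, 3 and 2 without lung vehicle replicate 3, and 17 and 11 without lung vehicle replicate 4. For kidney minus lung the count was 0 to 3 without any 1 young or vehicle kidney or any 1 young lung. For liver minus lung it was 1 to 3 without any 1 young or vehicle liver and 1 without young lung replicate 1 or 3. With the replicate number as a block the counts were 4 and 5. The share of all genes called in these alternative fits is not given here, so these counts are not compared with a background. The ABT-737 against vehicle change differed for 0 genes between kidney and liver (background 0.0839%), kidney and lung (0%), and liver and lung (0.29%), by edgeR and by DESeq2, and for 1 between liver and lung without lung ABT-737 replicate 5. At an unadjusted p under 0.05 there were 1, 10 and 12 genes (background 7.35%, 9.3% and 12.3%).

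Other genes of protein synthesis were described from 6 lists. Against the shares of all tested genes called between vehicle and young given above (13.3% for kidney, 22.6% for liver, 12.9% for lung and 11.2% for skin), the lists had lower shares called, apart from the other TOP messages and the regulators in lung. Mitochondrial ribosomal proteins belong to the ribosomes that translate the messages of the mitochondrial genome. In kidney 7 of 78 tested were called lower in vehicle than young and 0 higher (median log2 fold change -0.23). In liver 5 of 67 were lower and 0 higher (median -0.24). Mrps31 fell in kidney (17.7 ± 4.78 CPM against 31.9 ± 3.45 CPM, log2 fold change -0.83 ± 0.20 SE, adjusted p = 0.01), and the call was lost without vehicle replicate 4 (log2 fold change -0.70). Mrps30 fell in liver (7.33 ± 6.39 CPM against 42.7 ± 15.1 CPM, log2 fold change -2.14 ± 0.43 SE, adjusted p = 0.00237), and the call held with each library left out. In lung 2 of 75 were called higher, with the larger change in Mrpl47 (log2 fold change 1.42 ± 0.42 SE, adjusted p = 0.0418), whose call was lost without young replicate 1, 2, 3 or 4, vehicle replicate 3 or 5 or ABT-737 replicate 3 (log2 fold change 1.15 to 1.51) and with the block (0.95). In skin 1 of 78 was lower, Mrps21 (23.2 ± 1.95 CPM against 54.5 ± 13.9 CPM, log2 fold change -1.22 ± 0.22 SE, adjusted p = 0.0154), whose call was lost without young replicate 1 or 2 (log2 fold change -1.36 to -1.01). Between ABT-737 and vehicle 0 genes of the 6 lists were called in the 4 tissues by edgeR. DESeq2, added for these lists after the data were seen, called Eif4g2 higher in kidney, Eif3a higher and Eif3f and Rpl36al lower in lung, and 0 in liver and skin. At an unadjusted p under 0.05 there were 19 of 198 (9.60%, against 14.8% of all tested genes) for kidney, 11 of 148 (7.43%, against 16.1% of all tested genes) for liver, 24 of 198 (12.1%, against 16.1% of all tested genes) for lung and 5 of 203 (2.46%, against 7.97% of all tested genes) for skin.

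Messages with a TOP element outside the set of ribosomal protein genes taken here were called between vehicle and young in lung. This list is not free of ribosomal protein messages, since it holds Fau. Of 11 tested there, 3 were called higher and 11 had a fitted change above 0 (median 0.82). Kidney, liver and skin had 0 calls and medians of -0.02, 0.01 and -0.05, and whether lung differed from them was not tested. Npm1, a nucleolar chaperone of ribosome assembly, rose in lung (122 ± 49 CPM against 19.3 ± 6.15 CPM, log2 fold change 2.66 ± 0.42 SE, adjusted p = 0.00284), and the call held with each library left out and with the block. Fau, which encodes a small subunit protein fused to a ubiquitin-like protein, was not called in kidney (log2 fold change 0.43 ± 0.14 SE, adjusted p = 0.0535) or lung (log2 fold change 0.82 ± 0.38 SE, adjusted p = 0.159). Tpt1, another TOP message, had log2 fold changes of -0.00187 in kidney and 0.44 in lung, neither called.

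Of the elongation factors, 1 of 8 was called higher in lung, Eef1e1, a partner of the aminoacyl-tRNA synthetase complex (log2 fold change 1.89 ± 0.51 SE, adjusted p = 0.0257), and 0 were called in kidney, liver and skin. The call was lost without young replicate 1, 2, 3 or 4 or vehicle replicate 3 or 5 (log2 fold change 1.28 to 2.02) and with the block (0.97). Eef1a1, which brings aminoacyl-tRNA to the ribosome, was at 713 ± 408 CPM against 249 ± 88.2 CPM in vehicle and young lung and not called (log2 fold change 1.51 ± 0.50 SE, adjusted p = 0.0602). Eef2, the translocase, had a log2 fold change of 0.28 in lung, not called. Of the initiation factors, 4 of 40 were called lower in kidney, the largest change being that of Eif2s3x (log2 fold change -1.0 ± 0.32 SE, adjusted p = 0.0498), whose call was lost without young replicate 2, 3 or 4 or vehicle replicate 3, 4 or 5 (log2 fold change -1.20 to -0.84). In liver 1 was higher and 2 were lower, with Eif4g2 falling most (24.1 ± 7.12 CPM against 111 ± 23.2 CPM, log2 fold change -2.10 ± 0.33 SE, adjusted p = 3.50e-04), and this call held with each library left out. In skin 1 was lower and 1 was higher, Eif2s1 (log2 fold change 1.10 ± 0.26 SE, adjusted p = 0.0312), and in lung 0 were called. The call of Eif2s1 was lost without young replicate 1, 2 or 3 or vehicle replicate 3 or 5 (log2 fold change 0.95 to 1.17). Ribosome biogenesis genes had 2 higher and 1 lower of 49 in kidney, led by Tsr1 (log2 fold change 0.81 ± 0.21 SE, adjusted p = 0.0171), whose call was lost without young replicate 2 or vehicle replicate 4 (log2 fold change 0.65 to 0.77). In liver 1 of 26 was higher, Heatr1 (log2 fold change 1.05 ± 0.35 SE, adjusted p = 0.04), and lung and skin had 0 calls. The call of Heatr1 was lost without young replicate 1, 2, 3 or 4 or vehicle replicate 4 or 5 (log2 fold change 0.91 to 1.12).

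Among 16 regulators of ribosomal protein production, Myc, a transcription factor that drives these genes, rose in kidney (18 ± 5.90 CPM against 7.22 ± 5.30 CPM, log2 fold change 1.31 ± 0.40 SE, adjusted p = 0.0397), where the call was lost without young replicate 2, 3 or 4 or vehicle replicate 4 or 5 (log2 fold change 1.06 to 1.38). It rose in lung as well (35.8 ± 25.5 CPM against 12.2 ± 5.90 CPM, log2 fold change 1.58 ± 0.46 SE, adjusted p = 0.036), where the call was lost without young replicate 1, 2 or 3 or vehicle replicate 5 (log2 fold change 0.87 to 1.64) and with the block (0.99). Larp1, which binds the TOP element, rose in liver (268 ± 8.06 CPM against 119 ± 16.8 CPM, log2 fold change 1.17 ± 0.20 SE, adjusted p = 6.16e-04) and lung (log2 fold change 0.89 ± 0.27 SE, adjusted p = 0.0423). The liver call held with each library left out, and the lung call was lost without young replicate 1, 2, 3 or 4, vehicle replicate 3 or 5 or ABT-737 replicate 3 (log2 fold change 0.52 to 1.0) and with the block (0.72). Rheb, an activator of mTOR, was the other regulator called in liver and was lower (log2 fold change -1.14 ± 0.35 SE, adjusted p = 0.03), and its call was lost without young replicate 3 or vehicle replicate 4 (log2 fold change -1.28 to -1.08). Mtor was not called in kidney (log2 fold change -0.48 ± 0.18 SE, adjusted p = 0.0963) or in the other tissues, and skin had no regulator called.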

How the data were processed

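RNA of 39 libraries was counted per gene by the authors and deposited as whole-number counts without normalization. Kidney, liver and lung share a table over RefSeq transcripts, and skin has its own. The submitters' processing notes name HISAT 0.1.5, HOMER, bcl2fastq and mm10. Their roles, and whether strand or molecule barcodes were used in counting, are not given in the sources used here, so intervals cover counting error only. Groups came from the titles. The labels number the replicates, and p-values measure the spread between these libraries. No 2 libraries agreed within sampling noise.

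For every tissue, genes that passed filterByExpr were scaled by TMM and fitted with edgeR over the 3 groups with the quasi-likelihood model (R 4.3.3, edgeR 4.0.16, limma 3.58.1), and p-values were adjusted by Benjamini-Hochberg over all tested genes. This left 77, 49, 77 and 85 ribosomal protein genes of 11123, 5583, 11949 and 14224 genes tested in kidney, liver, lung and skin. CPM values are scaled by TMM within a tissue. Young tissues, and changes between tissues, were compared in fits over kidney, liver and lung, and skin was fitted apart. The method was tested on simulated counts.

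The genes named are the 5 called genes of largest change per tissue and comparison, paralogues and their partners, the stalk proteins, Rpsa, Rps6, Rps18, Rpl13a, Rpl32, the 3 most abundant genes of a tissue and, per list of other translation genes, the called gene of largest change, with Eef1a1, Eef2, Tpt1, Fau, Myc and Mtor. Some genes that this rule names are not reported here. Rpl15, Rpl26, Rheb, the split at 100 CPM and the further tissues given for Rps24 and Rpl14 were added after their values were seen. The ribosomal protein genes, the lists and the markers were chosen with earlier results of these data known.

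Alternatives were DESeq2 1.42.0, its size factors in edgeR, scaling without the ribosomal protein genes, no filter, a minimum of 10 counts in each library, a fit of the 2 compared groups alone, the replicate number as a block, and each library left out in turn. Genes with under 10% shared 3′ sequence were added as an alternative after seeing the data. Deviations of vehicle and ABT-737 libraries with the same replicate number had positive correlations in lung (0.176, 0.296 and 0.427 for replicates 3, 4 and 5). Unlike numbers ran there from -0.572 (vehicle replicate 4 with ABT-737 replicate 5) to 0.303 (vehicle replicate 4 with ABT-737 replicate 3). The ranges overlap, so these values do not settle whether the numbers pair mice. Same-numbered libraries had correlations of mixed sign in kidney (-0.175, -0.210 and 0.0196), liver (-0.0442, 0.160 and -0.0227) and skin (-0.574, -0.577 and 0.276).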

Additional observations from a re-analysis of the deposited data

Results flagged for a closer look

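Among the young groups of 4 mice, 90 groups of values of named genes were checked for a library far from the others, of which chance alone marks about 1 in 20, and 5 had one. In kidney they were Rpl36 in young replicate 3 at 5.56 CPM, the lowest of its group, and Rpl3l and Rps15a in young replicate 4 at 8.77 and 20.3 CPM, the highest of theirs. In lung they were Rpl10 in young replicate 4 at 89.4 CPM and Rpl32 in young replicate 2 at 474 CPM, both the lowest.

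Changes between vehicle and young that differed between tissues by the edgeR test of the difference itself are given as log2 differences. For kidney minus lung they were -2.49 for Rps19 (adjusted p = 0.042), -1.98 for Rps15a (adjusted p = 0.0305), -1.22 for Rps6 (adjusted p = 0.0348), -1.82 for Rps3a1 (adjusted p = 0.0405), -1.46 for Rps28 (adjusted p = 0.0319), -1.36 for Rpl15 (adjusted p = 0.0455) and -1.58 for Rps14 (adjusted p = 0.0319). For liver minus lung they were -1.94 for Rpl5 (adjusted p = 0.0425), -2.24 for Rps3a1 (adjusted p = 0.0287), -2.03 for Rpl15 (adjusted p = 0.0136), -1.94 for Rpl7 (adjusted p = 0.0379) and -1.51 for Rps14 (adjusted p = 0.0407). The difference of Rps19 rests on lung vehicle replicate 3, without which its change in lung was 0.25.

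Some genes moved one way in every vehicle library of another tissue and the opposite way in every vehicle library of skin, and these differences were not tested because skin was counted in another table. The log2 fold changes of vehicle against young were 0.58, 0.98 and 1.36 for Rpl14 in kidney, liver and lung against -0.18 in skin, and 0.38, 0.43 and 1.94 for Rps14 against -0.69. Rpl37a had 0.39 in kidney and 1.05 in liver against -0.77 in skin. In kidney Rpl38 had 0.93, Rps20 1.03 and Rps3a1 0.51, against -0.88, -0.33 and -1.26 in skin. In lung Rps19 had 2.88 and Rps29 0.78, against -0.51 and -0.91 in skin.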

How the results depend on the processing

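Counts of called ribosomal protein genes that moved by over 1.5 times are given here, and the others stayed within that. With the replicate number as a block, calls of vehicle against young went from 7 to 2 for kidney, 11 to 1 for liver, 18 to 1 for lung and 8 to 0 for skin, those of ABT-737 against young from 3 to 0 for liver and 7 to 0 for skin, and those of the kidney minus lung difference from 7 to 4. Of all tested genes the block called 3.32%, 5.21%, 2.79% and 0% between vehicle and young in kidney, liver, lung and skin. Between ABT-737 and young it called 0.699% in liver and 0% in skin. Young and old libraries share only the numbers 3 and 4, or 3 alone in skin, and the numbers are not known to pair mice. The calls lost with the block therefore do not decide whether the changes hold. With only the compared groups, 13 were called for kidney between vehicle and young (16.7% of the family against 16.9% of all genes). Between ABT-737 and young, 11 were called for liver, 1 of them lower (25% against 21.6%), and 2 for lung (2.70% against 4.30%). DESeq2 called 1 for kidney, 4 for lung and 13 for skin between ABT-737 and young, and 2 for lung between ABT-737 and vehicle. Without a filter on low values, 2 for kidney and 4 for lung were called between ABT-737 and young (2.64% and 4.57% of all genes). That setting gave 1 for liver and 2 for lung between ABT-737 and vehicle (3.57% and 2.04% of all genes). Between vehicle and young it gave 7 for liver (13.6% of all genes). With at least 10 counts in every library, 1 and 3 were called for the kidney and liver differences from lung, 8 for young liver against kidney and 30 for young lung against kidney. The share of all genes called in these fits between tissues is not given here. Scaling without the ribosomal protein genes, or by DESeq2's size factors, moved no count by over 1.5 times.

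With 1 library left out in turn, vehicle against young gave 2 to 12 calls for kidney, 5 to 12 for liver, 2 to 34 for lung and 0 to 11 for skin. ABT-737 against vehicle gave 0 to 1, 0 to 1, 0 to 0 and 0 to 0, and ABT-737 against young 0 to 1, 0 to 8, 0 to 2 and 0 to 10. The vehicle against young differences between tissues gave 0 to 17 for kidney and lung, 0 to 11 for liver and lung and 0 to 0 for kidney and liver. The ABT-737 difference of liver and lung gave 0 to 1. Young tissues gave 12 to 18, 34 to 45 and 32 to 38 for liver against kidney, lung against kidney and lung against liver. The family's median log2 fold change of vehicle against young ran from 0.30 to 0.35 for kidney, 0.32 to 0.57 for liver, 0.65 to 0.84 for lung and -0.19 to -0.11 for skin over the alternatives that keep every library, and from 0.22 to 0.35, 0.36 to 0.47, 0.47 to 0.93 and -0.29 to -0.08 with a library left out. That of ABT-737 against vehicle in skin changed sign when a library was left out (-0.10 to 0.02). For single named genes, 30 calls were lost under an alternative, 24 of them with the block, and 87 with a library left out. The cause of these changes was not tested. The depth of liver left 36 of 85 genes untested.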

Other observations

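Between ABT-737 and young mice, edgeR called 0 of 198 tested genes of the 6 lists for kidney (2.12% of all genes). Liver had 1 of 32 initiation factors, 1 of 26 biogenesis genes and 1 of 10 regulators called. It also had 2 of 67 mitochondrial ribosomal proteins (8.4%). Lung had 1 of 40 initiation factors and 1 of 14 regulators (2.55%). Skin had 1 of 41 initiation factors, 1 of 11 TOP messages and 1 of 78 mitochondrial ribosomal proteins (5.17%). The joined lists had lower shares called than all genes, but regulators (liver, lung) and TOP messages (skin) had higher ones. In liver the largest changes of their lists were those of Mrps31 (3.41 ± 0.814 CPM against 33.3 ± 7.82 CPM, log2 fold change -3.22 ± 0.61 SE, adjusted p = 0.00499), Eif4g2 (21.9 ± 12.8 CPM against 111 ± 23.2 CPM, log2 fold change -2.38 ± 0.36 SE, adjusted p = 0.0016) and Imp4 (12.3 ± 4.88 CPM against 36.2 ± 9.41 CPM, log2 fold change -1.57 ± 0.39 SE, adjusted p = 0.0229), all lower, and Larp1 (226 ± 19.5 CPM against 119 ± 16.8 CPM, log2 fold change 0.93 ± 0.20 SE, adjusted p = 0.00908), higher. In lung they were Eif3a, a subunit of an initiation factor (211 ± 142 CPM against 55.9 ± 7.65 CPM, log2 fold change 1.93 ± 0.41 SE, adjusted p = 0.0353), and Yy1, a transcription factor (104 ± 57.9 CPM against 38.1 ± 8.14 CPM, log2 fold change 1.47 ± 0.36 SE, adjusted p = 0.0485), both higher. In skin they were Eif1ax (140.3 ± 29 CPM against 66.4 ± 8.16 CPM, log2 fold change 1.08 ± 0.23 SE, adjusted p = 0.0354) and Nap1l1, a histone chaperone with a TOP message (75.7 ± 19 CPM against 33.7 ± 3.20 CPM, log2 fold change 1.16 ± 0.27 SE, adjusted p = 0.0418), both higher, and Mrps21 (22 ± 2.28 CPM against 54.5 ± 13.9 CPM, log2 fold change -1.30 ± 0.22 SE, adjusted p = 0.0192), lower. Of these calls, that of Eif4g2 and that of Mrps31 held with each library left out. The call of Imp4 was lost without young replicate 4 or ABT-737 replicate 3 or 4 (log2 fold change -1.56 to -1.23), and that of Larp1 was lost without ABT-737 replicate 5 (log2 fold change 0.87). The call of Eif3a was lost without young replicate 1, 2, 3 or 4 or ABT-737 replicate 3 or 5 (log2 fold change 1.41 to 1.98) and with the block (1.57), and that of Yy1 was lost without young replicate 1, 2, 3 or 4, vehicle replicate 3 or ABT-737 replicate 3 or 5 (log2 fold change 1.14 to 1.59) and with the block (1.15). The skin calls of Eif1ax, Nap1l1 and Mrps21 were each lost with any 1 young library left out.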
